A study of Sus scrofa with 36 samples.

Results

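The livers compared came from heat-stressed pigs of 3 genetic types, namely Large White (LW), Creole (CR) and the F1 cross of LW with CR. The members were taken by title, as the 6 F1 liver samples, the 6 LW samples and the 6 CR samples labelled with the higher of 2 temperatures, which made 18 of the 36 samples of the series. The question was whether expression in the F1 under heat stress (HS) lay at, beside or beyond the mid-parent value, that is, the mean of the LW HS and CR HS group means on the log2 scale.

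All animals were castrated males, and total liver RNA of each was labelled with Cy3 and hybridised to its own single-colour Agilent pig array. The LW HS, F1 HS and CR HS animals carry the label 30 °C, while the protocol text describes an exposure of 5 days to 32 °C. The thermoneutral (TN) animals, 6 of each type, were other pigs killed at 24 °C before the exposure. Which breed was the dam of the F1, the ages and the litters were not in the labels. The study's methods state that all pigs were arranged in blocks of littermates, with only a few blocks for each genetic type. Pen mates came from different blocks, and the pens of each type were divided between the temperatures. The TN animals therefore include littermates of the HS animals. The tests here treat littermates as independent, so p-values measure the spread between related animals from few litters.

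In a cross, a gene that follows the mean of its parents is called additive, one at the level of a single parent is called dominant, and one above or below both parents is called over-dominant. Crossbreeding is used in pig production because F1 animals can outperform the average of the parental breeds. In a liver homogenate each signal is a mean over hepatocytes, macrophages, endothelial cells and other cells, so fewer cells of a type and less RNA per cell cannot be told apart.

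The probes that carry the departures described below are printed here because several of them share sequence, and a call on overlapping probes is not an independent call. A departure is F1 HS minus the mid-parent value in log2 signal. The 10 probes past the threshold formed 6 sets with no sequence overlap between sets, and 2 pairs of them were the same oligonucleotide printed under separate names. All sequences are the array's 60-base probes as the deposited files give them, without a position in the transcript. For MTRF1, the mitochondrial translation release factor gene, capitals mark the 57 bases shared by the 3 probes below the mid-parent value, and the last 3 probes are those of the same gene with no departure.
MTRF1 probe A_72_P191081: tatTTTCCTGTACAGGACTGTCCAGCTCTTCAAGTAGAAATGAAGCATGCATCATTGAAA
MTRF1 probes A_72_P547886 and O7914: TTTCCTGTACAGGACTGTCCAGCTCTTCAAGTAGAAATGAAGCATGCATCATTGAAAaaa
MTRF1 probe A_72_P042321: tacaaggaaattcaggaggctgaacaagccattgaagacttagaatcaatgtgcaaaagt
MTRF1 probe A_72_P190681: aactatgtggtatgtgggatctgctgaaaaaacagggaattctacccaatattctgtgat
MTRF1 probe A_72_P592384: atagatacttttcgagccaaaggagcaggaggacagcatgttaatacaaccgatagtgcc

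For NOL11, a nucleolar protein of ribosomal RNA processing, the first probe departed and the other did not, and the longest run of bases they share is 7.
NOL11 probe A_72_P203797: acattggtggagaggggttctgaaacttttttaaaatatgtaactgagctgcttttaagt
NOL11 probe O9769: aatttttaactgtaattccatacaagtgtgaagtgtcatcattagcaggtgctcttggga

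For MDH2, the mitochondrial malate dehydrogenase, the first 30 bases of 3 probes are given, and capitals mark the start of the run of 51 bases that all 3 hold.
MDH2 probe A_72_P501715: AAATGTGAGGAATTACAGGAGACCTGACTC
MDH2 probe A_72_P181146: tacggtAAATGTGAGGAATTACAGGAGACC
MDH2 probe CUST_440_PI427286967: gtttacggtAAATGTGAGGAATTACAGGAG

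MIC-2 is annotated in the files as an MHC class I related antigen. Its first probe is identical to a probe listed under the transcript name OTTSUST00000001125 and is in capitals, while the other probe reads another stretch.
MIC-2 probe A_72_P172941 and OTTSUST00000001125: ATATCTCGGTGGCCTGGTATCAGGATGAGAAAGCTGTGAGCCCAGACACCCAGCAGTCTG
MIC-2 probe A_72_P555381: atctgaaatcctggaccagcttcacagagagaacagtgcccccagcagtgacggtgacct

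The other 2 sets were single probes with no gene symbol, given in full for the first and as its first 30 bases for the second.
Probe A_72_P097651: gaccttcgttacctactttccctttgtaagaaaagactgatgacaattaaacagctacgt
Probe A_72_P050011: ctactgaatgtttatagtatcgtcgtcctc

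The arrays gave between 40064 and 44025 non-control spots well above background in the HS animals, and 44796 probes that passed the detection filter over all 36 arrays entered the tests. The 11 measured hepatocyte markers stood at a mean log2 signal of 17.02 to 17.12 in every HS liver, as the label liver calls for, although CPS1 was not on the array. Of the macrophage list, MARCO and ADGRE1 were not on the array, and of the endothelial list STAB2 was not above background on enough arrays.

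The F1 HS livers did not stand together. Each animal was placed on an axis drawn from the TN parents at 1986 of the 1988 probes that differed between LW TN and CR TN (4.44% of those tested), with 0 set at the LW HS mean and 1 at the CR HS mean, so that the additive expectation is 0.5. F1 HS replicates 1 and 2 both lay at 0.348, replicates 3 to 6 at 0.668, 0.758, 0.682 and 0.706, and the 6 averaged 0.585 ± 0.186 (SD, n = 6). Replicates 1 and 2 were therefore on the LW side of the midpoint and the other 4 on the CR side, with no animal between 0.348 and 0.668. The LW HS animals ranged from -0.059 to 0.061 and the CR HS animals from 0.879 to 1.14, so no F1 HS animal reached the range of either parent on this axis. At TN the 6 F1 animals ranged from 0.350 to 0.718 and averaged 0.531 ± 0.129 (SD, n = 6), without such a gap. The LW TN animals, which helped to draw the axis, did show a gap. Their replicates 1 and 6 lay at 0.099 and 0.069, towards the F1, and replicates 2 to 5 between -0.185 and -0.106. Over all 44723 probes measured on every array, the F1 HS positions ranged from 0.289 to 0.921. Replicates 3, 4 and 6, at 0.829, 0.921 and 0.793, then lay inside the CR HS range of 0.780 to 1.19.

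Replicates 2 and 3 were hybridised on the same slide, number 2, and lay at 0.348 and 0.668. Replicate 1 was the only F1 HS array on slide 1, and the part of the slide in the gap was not tested. The first principal component of all kept probes, which held 18.6% of the variance, placed F1 HS replicates 1 and 2 at -17.0 and -21.3 and replicates 3 to 6 between 14.6 and 36.9, while LW HS animals lay between -34.3 and -24.8 and CR HS animals on the positive side, up to 35.4. LW TN replicates 1 and 6 lay at -4.83 and -3.04 on it and LW TN replicates 2 to 5 between -44.2 and -35.0. Counts of detected probes showed no such gap in F1 HS. Of 18 probes detected in the LW but not the CR at TN, the 6 F1 HS livers detected 9, 10, 7, 9, 10 and 10, against 13 to 17 in LW HS and 1 to 6 in CR HS. Of 46 probes detected in the CR but not the LW at TN, they detected 17, 31, 19, 23, 29 and 25, against 22 to 35 in CR HS and 6 to 32 in LW HS, so the last ranges overlapped. F1 HS replicates 1 and 2 did not stand apart in either count. In the sample titles, the animal codes of F1 HS replicates 1 and 2 lie between codes of LW pigs. Those of LW TN replicates 1 and 6 lie between codes of F1 pigs. Whether the labels of these animals have a part in the gaps was not tested.

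**Figure D1:**
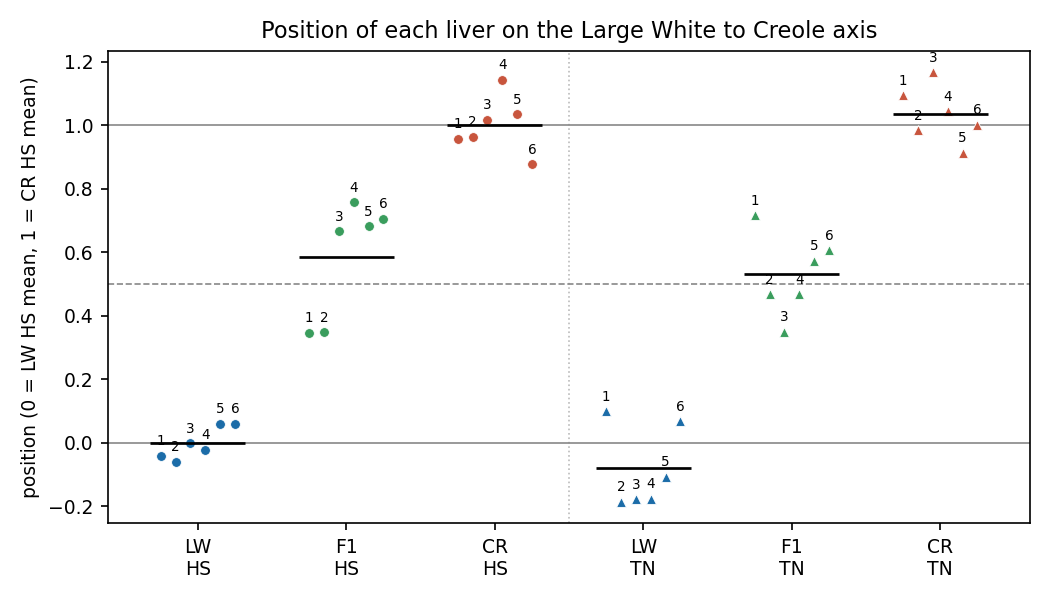
Position of each of the 36 livers (points, numbered by replicate; bars are group means) between the LW HS mean at 0 and the CR HS mean at 1, by genetic type and temperature, HS as circles and TN as triangles. F1 HS replicates 1 and 2 lie at 0.348 and replicates 3 to 6 between 0.668 and 0.758, while the F1 TN animals spread from 0.350 to 0.718 around the dashed line at 0.5.

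Macrophage markers moved with the same animals. The mean log2 signal of the 10 measured Kupffer cell markers was lowest 11.48, median 11.58 and highest 11.76 in LW HS, and 10.64, 10.77 and 11.06 in CR HS. In F1 HS it was 11.57 and 11.44 in replicates 1 and 2 and between 10.61 and 10.99 in the other 4. Replicates 1 and 2 were thus at the level of the LW HS group and the other 4 at that of the CR HS group. In LW TN, replicates 1 and 6 were at 11.15 and 11.27 and replicates 2 to 5 between 11.61 and 11.84. The part of macrophage RNA in the positions above was not tested.

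The departure from the mid-parent value passed the threshold at 10 of 44796 probes, which is 0.0223% of those tested (limma adjusted p under 0.05, two-sided), with 3 probes above (0.0067%) and 7 below (0.0156%). Before adjustment 4304 probes, or 9.61%, had a p under 0.05. The parents themselves differed at 7463 probes (16.7%), of which 3598 (8.03%) were higher and 3865 (8.63%) lower in CR HS. F1 HS differed from LW HS at 2839 probes (6.34%) and from CR HS at 39 (0.0871%). The difference between the last 2 numbers was not itself tested, and single animals moved them. Against LW HS the count was 4970 or 5569 without F1 HS replicate 1 or 2, 444, 557, 1359 and 1277 without replicates 3 to 6, and 1353 to 1663 without any of LW HS replicates 1 to 5. The 95% interval of the departure reached a median of 0.19 log2 units to each side, and at 87.4% of the probes the whole interval lay within 0.5 of 0. In simulated data of the same size, with the fitted spread of each probe, 70.5% of probes changed by 0.5 log2 units were called. For changes of 1 and 2 log2 units the shares were 96% and 99%. The simulated noise was independent between probes and had the same spread in all groups, without the split of the F1 HS animals. Shares in the real data may therefore be lower.

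The count of departing probes changed most where F1 HS replicates 1 and 2 were left out together, though no other pair was left out. It was 7 without replicate 1 alone and 21 without replicate 2 alone. Without both of them 1790 probes were called (4%), 807 above and 983 below the mid-parent value, and 1598 of these (89.3%) had shifted towards CR. All 10 probes called with the 6 animals were among them. Leaving out the pair nearest LW moves the F1 mean towards CR by construction, and the pair was picked by its measured position, so these counts describe the 4 animals left and are not evidence for dominance.

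Where the parents differed, the F1 mean usually lay between them. At the 7463 such probes the F1 HS mean fell between the parental means at 6445 (86.4%) and was nearer the CR mean at 5778 (77.4%). These probes were chosen by the parental difference in the same HS animals, which favours parental means on either side of the F1. The F1 mean also joined animals on both sides of the midpoint, as given above. The median size of the parental difference at the 7463 probes was 0.43 log2 units. The 95% interval reached a median of 0.21 to each side, so most probes could not be assigned. A probe was called additive where the 95% interval of the departure lay within 0.25 times the parental difference on each side of 0. By these rules 7459 of the 7463 probes (99.9%) were unresolved, 3 were additive and 1 was LW-like. Outside the 7463, at probes where the parents did not pass the test of a difference, 3 probes were over-dominant up, 4 were over-dominant down and 3 counted as CR-like only because the test against CR HS missed the threshold. Of the 3 over-dominant up probes, MIC-2 A_72_P555381 passed against both parents but not against the mid-parent value (limma adjusted p = 0.0582). It is therefore not among the 10 called departures.

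**Figure D2:**
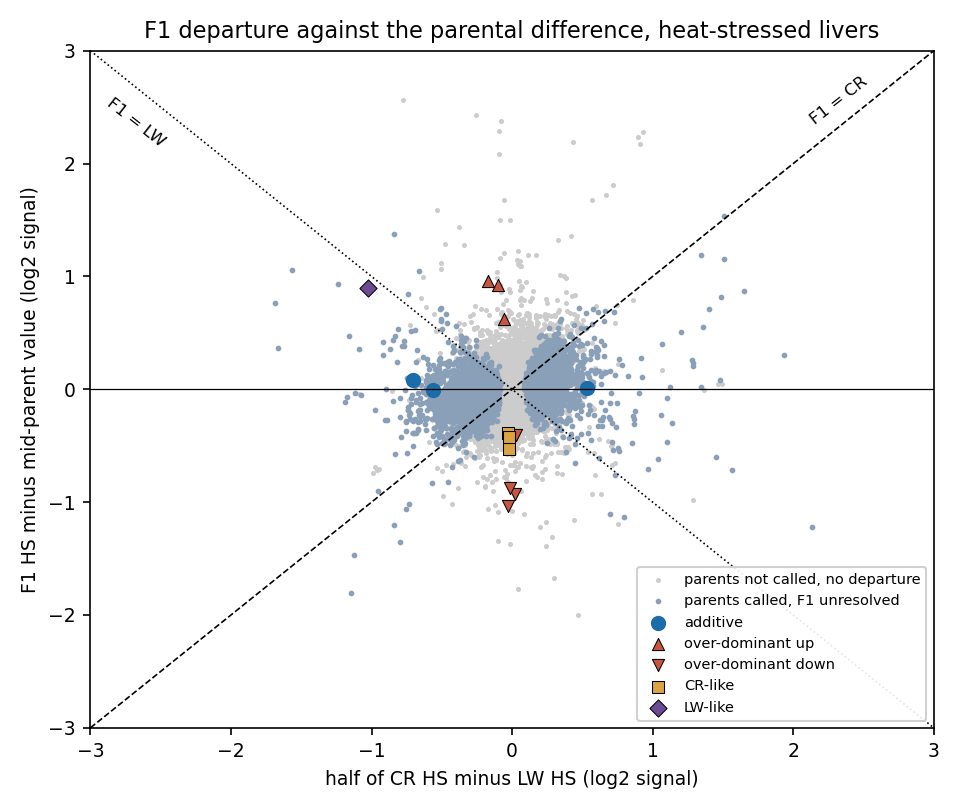
Departure of F1 HS from the mid-parent value (vertical, log2 signal) against 0.5 times the CR HS minus LW HS difference (horizontal, log2 signal) for 44796 probes, where the dashed diagonal is an F1 equal to CR, the dotted one an F1 equal to LW and the horizontal line the additive expectation. The 4 over-dominant down and 3 CR-like probes lie below the line at a parental difference near 0, the 3 over-dominant up probes above it, and 7459 blue points are unresolved.

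At probes that differed between the parents at TN and by over 0.3 log2 units at HS, the median position of the F1 HS mean was 0.646 (1486 probes, interquartile range 0.476 to 0.792). It was 0.641 over the autosomes (728 probes with a chromosome) and 0.645 on the X chromosome (39 probes of 23 genes). A male has 1 X chromosome, from its dam, so X-linked genes of the F1 cannot be intermediate by holding alleles of both breeds. Autosomes ranged from 0.549 on chromosome 17 to 0.837 on chromosome 11, the latter from 25 probes of only 8 genes. On the mitochondrial genome, which passes through the dam, only 5 probes of 4 genes qualified, with a median of 0.467. Probes of a chromosome share the same animals, and these medians carry no test.

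Among the called genes, MTRF1 fell furthest. At probe A_72_P191081 the log2 signal was lowest 7.73, median 7.81 and highest 7.95 in LW HS, 7.53, 7.80 and 7.86 in CR HS, and 6.27, 6.91 and 7.17 in F1 HS. All 6 F1 HS livers lay below every parental HS liver, and replicates 5 and 6 were lowest at 6.27. The departure was -1.03 ± 0.12 (SE, 95% interval -1.28 to -0.78, limma adjusted p = 4.57e-05), a signal 2.04-fold below the mid-parent value. F1 HS differed from LW HS by -1.06 (adjusted p = 0.00014) and from CR HS by -0.999 (adjusted p = 0.000525). The shared-sequence probes A_72_P547886 and O7914 departed by -0.93 ± 0.13 (adjusted p = 0.000929) and -0.88 ± 0.13 (adjusted p = 0.00103). The 3 MTRF1 probes of other sequence departed by -0.01, 0.05 and 0.06, with no call. The fall was therefore seen at 1 stretch of the gene and not over the gene as a whole, and the gene was named after its values were seen because its representative probe did not depart. MTRF1 lies on chromosome 11 from 25603784 to 25638576 in Sscrofa11.1.

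The MTRF1 departure was present on each of the 4 slides that held all 3 HS groups, at -0.93, -0.77, -1.55 and -1.48 for slides 2 to 5. Probe A_72_P191081 was called in every alternative run, with adjusted p between 8.28e-06 and 0.0138, while A_72_P547886 and O7914 lost the call without slide 4 (adjusted p = 0.0703 and 0.113). In the TN animals the F1 signals were lowest 7.25, median 7.73 and highest 7.91, and the departure was -0.17 ± 0.12 (adjusted p = 0.688). The difference between the HS and TN departures was -0.86 ± 0.17, with an unadjusted p of 2.38e-05 in limma and an adjusted p of 0.468 over all probes, so it did not pass.

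NOL11 was the most even of the called genes. At A_72_P203797 the signal was lowest 9.18, median 9.24 and highest 9.39 in LW HS, 9.07, 9.36 and 9.41 in CR HS, and 8.83, 8.88 and 8.94 in F1 HS. All 6 F1 HS livers lay below all 12 parental HS livers, and they spanned a narrow range. The departure was -0.40 ± 0.06 (SE, 95% interval -0.52 to -0.29, limma adjusted p = 0.0008), or 0.757 times the mid-parent signal, with differences of -0.38 from LW HS (adjusted p = 0.00348) and -0.43 from CR HS (adjusted p = 0.00165). Within slides 2 to 5 it was -0.29, -0.40, -0.49 and -0.43, and no alternative run ended the call. At TN the F1 livers ran from 8.99 through a median of 9.09 to 9.35, with a departure of -0.06 ± 0.06 (adjusted p = 0.772). The HS and TN departures differed by -0.34 ± 0.08 (unadjusted p = 0.00015 in limma), which did not pass over all probes (adjusted p = 1). The other NOL11 probe, O9769, departed by 0.11 (adjusted p = 0.603), so the fall is again that of 1 probe. The gene lies on chromosome 12 from 14035649 to 14058421.

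MDH2, an enzyme of the citric acid cycle and the malate shuttle, was lower in F1 HS at each of its 4 kept probes. At A_72_P501715 the signal was lowest 12.83, median 13.22 and highest 13.31 in LW HS, 12.96, 13.06 and 13.36 in CR HS, and 12.47, 12.76 and 12.88 in F1 HS. In this gene 5 of the 6 F1 HS livers lay below all parental HS livers, and the highest overlapped with the lowest LW liver alone. The departure was -0.42 ± 0.08 (SE, 95% interval -0.58 to -0.27, limma adjusted p = 0.0178), and the 4 probes ranged from -0.42 to -0.36. A second probe, A_72_P181146, passed at -0.39 ± 0.07 (adjusted p = 0.0308). Against LW HS the difference at A_72_P501715 was -0.44 (adjusted p = 0.00804), and against CR HS -0.40 (adjusted p = 0.0545). The CR-like class of MDH2 rests on that last p alone, since the parents differed there by only -0.04. Within slides 2 to 5 the departure was -0.31, -0.66, -0.46 and -0.29. In the TN livers it was -0.28 ± 0.08 (adjusted p = 0.191), in the same direction. The call on A_72_P501715 was lost without F1 HS replicate 3 (adjusted p = 0.110) or replicate 4 (adjusted p = 0.082), without slide 2, 3 or 4 (adjusted p up to 0.537), and with the processed signal, the authors' table or the HS arrays alone (adjusted p = 0.116, 0.107 and 0.122). That on A_72_P181146 was lost in 9 of the 18 fits without 1 HS liver, in 4 of 5 without a slide and in the same 3 other settings. The gene lies on chromosome 3 from 10120121 to 10132705.

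**Figure D3:**
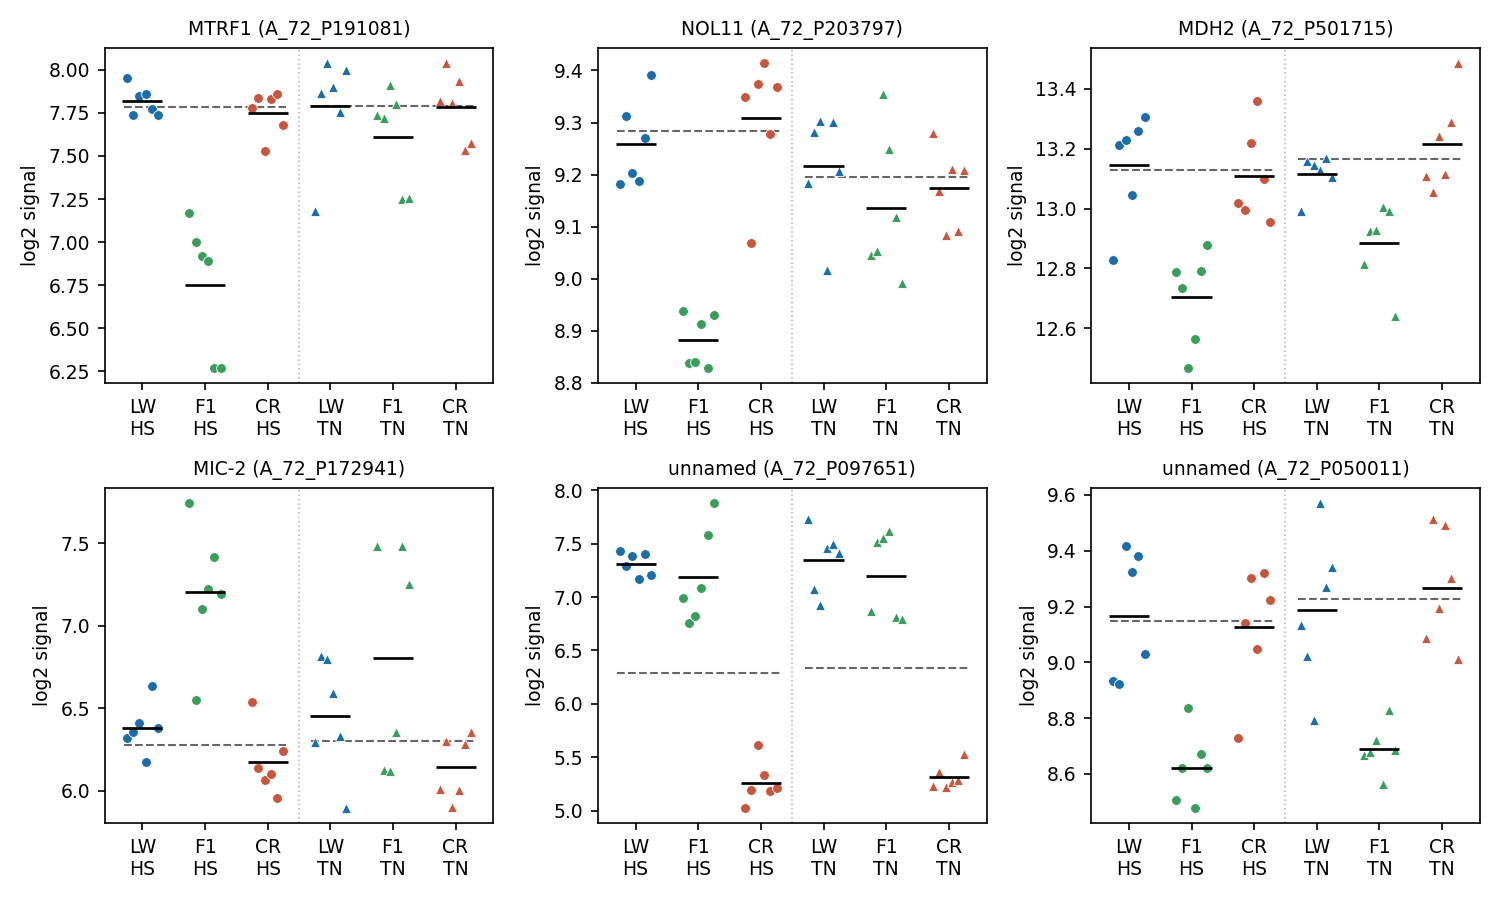
Log2 signal of each liver (points) at 6 probes past the threshold, 1 of each sequence set, by genetic type at HS (circles) and TN (triangles), with group means as bars and the mid-parent value of each temperature as a dashed line. At the MTRF1 and NOL11 probes all 6 F1 HS livers lie below every parental HS liver, and in MIC-2 5 of 6 lie above.

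MIC-2 belongs to the MHC class I related genes whose products are seen by a receptor of natural killer cells. It was the only gene with a symbol that had a probe called above the mid-parent value. At A_72_P172941 the signal was lowest 6.18, median 6.37 and highest 6.64 in LW HS, 5.96, 6.12 and 6.54 in CR HS, and 6.55, 7.21 and 7.75 in F1 HS. Of the F1 HS livers 5 of 6 were above all parental HS livers, and replicate 2, at 6.55, was not. The departure was 0.93 ± 0.18 (SE, 95% interval 0.57 to 1.29, limma adjusted p = 0.0405), 1.90-fold above the mid-parent value. The differences were 0.82 from LW HS (adjusted p = 0.0205) and 1.03 from CR HS (adjusted p = 0.0316). The same oligonucleotide under the name OTTSUST00000001125 gave 0.96 ± 0.17 (adjusted p = 0.0178). The separate and brighter probe A_72_P555381, which represents the gene, gave 0.62 ± 0.12 and was not called (adjusted p = 0.0582). In the TN livers the F1 signals split, from 6.12 through a median of 6.80 to 7.49, and the departure was 0.50 ± 0.18 (adjusted p = 0.344). The A_72_P172941 call was lost when any of 16 of the 18 HS livers was left out. It was also lost with the processed signal, normexp or no filter (adjusted p = 0.0647, 0.0503 and 0.0531). With slide as a fixed block neither A_72_P172941 (adjusted p = 0.0617) nor OTTSUST00000001125 (adjusted p = 0.0503) passed.

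The unnamed probe A_72_P097651, which the files describe as similar to a dog coiled-coil protein, was the only LW-like one. Its signal was lowest 7.17, median 7.33 and highest 7.43 in LW HS, 6.75, 7.04 and 7.88 in F1 HS, and 5.03, 5.20 and 5.62 in CR HS, where it was above background on 1 of 6 arrays. The F1 HS livers overlapped with LW HS and were clear of CR HS. The departure was 0.90 ± 0.14 (limma adjusted p = 0.00279), and its difference from LW HS was -0.13 (adjusted p = 0.681). The fitted difference from CR HS was 1.93 (adjusted p = 7.12e-09), a size that depends on the background in 5 of the 6 CR HS arrays. The mid-parent value on the log2 scale is set low by a parent near background, and with a mid-parent value averaged on the linear scale the departure was 0.56 (adjusted p = 0.190). It was also called at TN, at 0.86 ± 0.14 (adjusted p = 0.0317).

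The unnamed probe A_72_P050011 was below both parents at either temperature. Under HS its signal was lowest 8.92, median 9.18 and highest 9.42 in LW, 8.73, 9.18 and 9.32 in CR, and 8.48, 8.62 and 8.84 in F1. Most F1 HS livers lay below the parents, with an overlap only at the lowest CR HS liver. The departure was -0.53 ± 0.10 (limma adjusted p = 0.036) under HS and -0.54 ± 0.10 (adjusted p = 0.0441) at TN. The HS call was lost in 13 of the 18 fits that left out 1 HS liver and with slide as a fixed block (adjusted p = 0.0617).

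**Figure D4:**
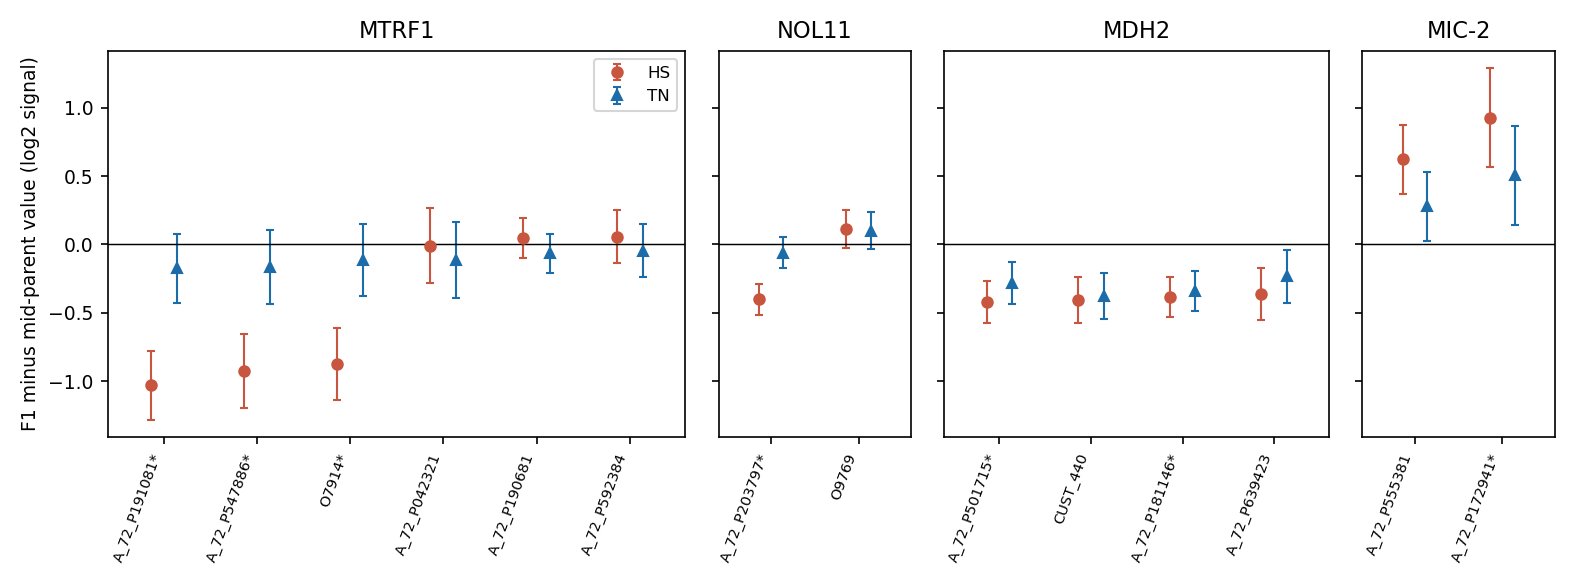
F1 minus mid-parent value in log2 signal (points; bars are 95% intervals) at every kept probe of the 4 named genes with a called probe, at HS (circles) and TN (triangles), with probes past the threshold under HS starred. The 3 starred MTRF1 probes, of shared sequence, lie between -1.03 and -0.88, while the other 3 lie between -0.01 and 0.06.

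The TN comparison of F1 with its own mid-parent value was made on other animals, but from the same few litters by the study's design. It gave 6 called probes (0.0134%), of which 2, A_72_P050011 and A_72_P097651, were also among the 10 under HS. All 10 HS departures, which come from 6 sets of sequence, had the same sign at TN. The share of equal signs over all probes was not counted, and the TN and HS pigs share litters. The equal signs are therefore not an independent repeat of the HS departures. At the called MTRF1 and NOL11 probes the TN departures were only -0.17 to -0.06 and were not called. No probe passed the test of a difference between the HS and TN departures (limma, smallest adjusted p 0.468), while 1661 (3.71%) had an unadjusted p under 0.05. Among them were 5 of the 10, including the overlapping MTRF1 probes. The 10 were picked by their HS departure, which is part of that difference, so their share cannot be set beside 3.71%. Of named genes only TMSB4X, an actin-binding thymosin on the X chromosome, and LSM7, a subunit of the RNA-binding LSM ring, were called at TN, and their HS departures were -0.23 and -0.16 (adjusted p = 0.311 and 0.398).

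The genes ranked next by p did not pass. IGFBP2, a binding protein for insulin-like growth factors secreted by the liver, was lowest 15.23, median 15.59 and highest 15.91 in LW HS, 15.37, 15.64 and 16.11 in CR HS, and 14.49, 14.94 and 15.57 in F1 HS. Its F1 HS values lay lower, 5 of 6 below all parents. The departure was -0.69 ± 0.14 (limma adjusted p = 0.0713), with 4 probes between -0.79 and -0.65, and it was 0.19 at TN. Within slides 2 to 5 it was -0.45, -0.03, -0.95 and -0.98. PON1, a paraoxonase carried on lipoproteins, was at -0.60 ± 0.14 (adjusted p = 0.129), but its other probe was at 2.28 ± 0.80 (adjusted p = 0.328). Of the other genes named by p, KLHDC8B (0.41), PLCD3 (0.44) and RPL13AP3 (0.37) stood above and THAP11 (-0.28) and SNX18 (-0.32) below the mid-parent value, with adjusted p from 0.123 to 0.151. The second PLCD3 probe gave -0.15.

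Among the genes with the smallest p for a difference between HS and TN departures, DOK2, an adapter of receptor signalling in blood cells, departed by 0.36 under HS and -0.62 at TN, a difference of 0.98 (unadjusted p = 3.13e-05, adjusted p = 0.468). Its 4 probes ranged from -0.01 to 0.36 under HS. TRIP6, a LIM domain adapter, departed by 0.39 and -0.70, a difference of 1.09 (adjusted p = 1). IP6K3, an inositol phosphate kinase, departed by 0.43 (adjusted p = 0.0769) and -0.08, but it was above background on 1 LW HS, 4 F1 HS and no CR HS arrays. None of these differences passed over all probes.

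The 3 additive probes are those where the parents stood far apart and the F1 in the middle. C1D, a cofactor of the nuclear RNA exosome, was lowest 8.42, median 8.66 and highest 8.78 in LW HS, 7.84, 8.10 and 8.21 in F1 HS, and 7.35, 7.50 and 7.71 in CR HS. The 3 groups did not overlap. The parents differed by -1.13 (limma adjusted p = 3.43e-09), the departure was -0.01 (95% interval -0.18 to 0.16), and the position was 0.508. The other C1D probe showed no parental difference (0.03). RGP1, which acts with RIC1 in trafficking to the Golgi, rose from a median of 5.51 in LW HS through 6.11 in F1 HS to 6.66 in CR HS, with a parental difference of 1.07 and a departure of 0.01 (95% interval -0.22 to 0.24). Its 5 probes gave parental differences from -0.07 to 1.07. RGP1 and the unnamed A_72_P352383, with a parental difference of -1.41 and a departure of 0.08 (95% interval -0.11 to 0.27), were named after their values were seen.

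Expression detected in a single parent was also followed into the F1. At 45 probes the signal was well above background on at least 5 of 6 CR HS arrays and on no LW HS array, and the F1 detected these on a median of 2 of 6 arrays, with 7 probes (15.6%) on 5 or 6 arrays and 2 probes on none. At 25 probes the signal was confined in the same way to LW HS, and the F1 median was again 2 of 6, with 3 probes on none and no probe on 5 or 6. HRH1, the histamine H1 receptor on chromosome 13, was at least 3.38-fold higher in LW HS than in CR HS, where it was not well above background (adjusted p = 0.0015). In F1 HS it ran from 5.15 through a median of 5.75 to 7.75 and was detected in 4 of 6 livers, so the F1 spanned both parental states. CATSPERB, a subunit of a sperm calcium channel, was at least 1.76-fold higher in LW HS and detected in 3 of 6 F1 HS livers. Its other probes were likewise undetected in CR HS. Of these, A_72_P688223 was detected on only 2 of 6 LW HS arrays, and O2686 missed the parental test (limma adjusted p = 0.0566). TSPAN11, a tetraspanin, was at least 1.45-fold higher in LW HS and detected in 2 F1 HS livers. On the CR side, MAP2K3, a kinase upstream of p38, was at least 1.44-fold higher in CR HS and detected in 4 F1 HS livers. KIAA1211L was at least 1.29-fold higher and detected in 2, and its parental test did not pass (adjusted p = 0.162). NPSR1, the neuropeptide S receptor, met the rule at probe A_72_P442248 (at least 1.39-fold, detected in 2), but its other probe was above background on all 6 arrays of each HS group. A bound sets the mean of the higher parent against the lowest signal well above background on the arrays of the other parent, or against the probe's own signal there where that was higher, as for MAP2K3.

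Lists of genes were read by their counts and medians. The 25 lists held 782 different genes, of which 654 had a kept probe. None of the 654 was called against the mid-parent value. Over all 11209 genes only 2 were called at their representative probe, too few to set the lists apart. An unadjusted p under 0.05 was found for 79 of the 654 (12.1%), beside 9.52% of all 11209 genes measured. Medians of the lists ran from -0.14 to 0.19, beside -0.01 over all genes. Where the parents differed within the lists, at 107 genes, the F1 HS mean lay between them at 93.

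The mitochondrially encoded genes had the highest median, 0.19, over all 13 members, which ranged from -0.02 to 0.57. They encode subunits of the respiratory chain and ATP synthase, and 8 of 13 had an unadjusted p under 0.05. ND3 stood at lowest 16.30, median 16.47 and highest 17.10 in LW HS, 16.55, 16.77 and 16.99 in CR HS, and 17.08, 17.20 and 17.35 in F1 HS. Apart from a single LW HS liver, the F1 HS livers were above the parents, and the departure was 0.51 ± 0.11 (limma adjusted p = 0.0788). Of the other ND3 probes A_72_P757289 departed by 0.66 and O2102 by -0.10 (-0.21 at TN). ND6 departed by 0.57 ± 0.15 (adjusted p = 0.203). Transcripts at the other end, COX1 and COX2, departed by 0.07 each and ND4L by -0.02. The mean of the 13 genes was lowest 17.09, median 17.15 and highest 17.23 in F1 HS, 16.64, 16.80 and 17.11 in LW HS, and 16.87, 17.01 and 17.17 in CR HS. The F1 livers were high and close together, but they overlapped with both parents. At TN all 13 genes lay above the mid-parent value too, none of them called, and the F1 TN mean ranged from 17.24 to 17.37. No mitochondrial probe passed among 128 (smallest adjusted p = 0.0788), their departures ranged from -0.47 to 2.57, and the genes of 1 circular genome are not independent. Under other scalings and without F1 HS replicates 1 and 2 the list median lay between 0.19 and 0.27. The 45 measured nuclear respiratory chain genes had a median of -0.05, with NDUFS4 at -0.36 (adjusted p = 0.151) and PTPMT1 at -0.63 (adjusted p = 0.203).

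**Figure D5:**
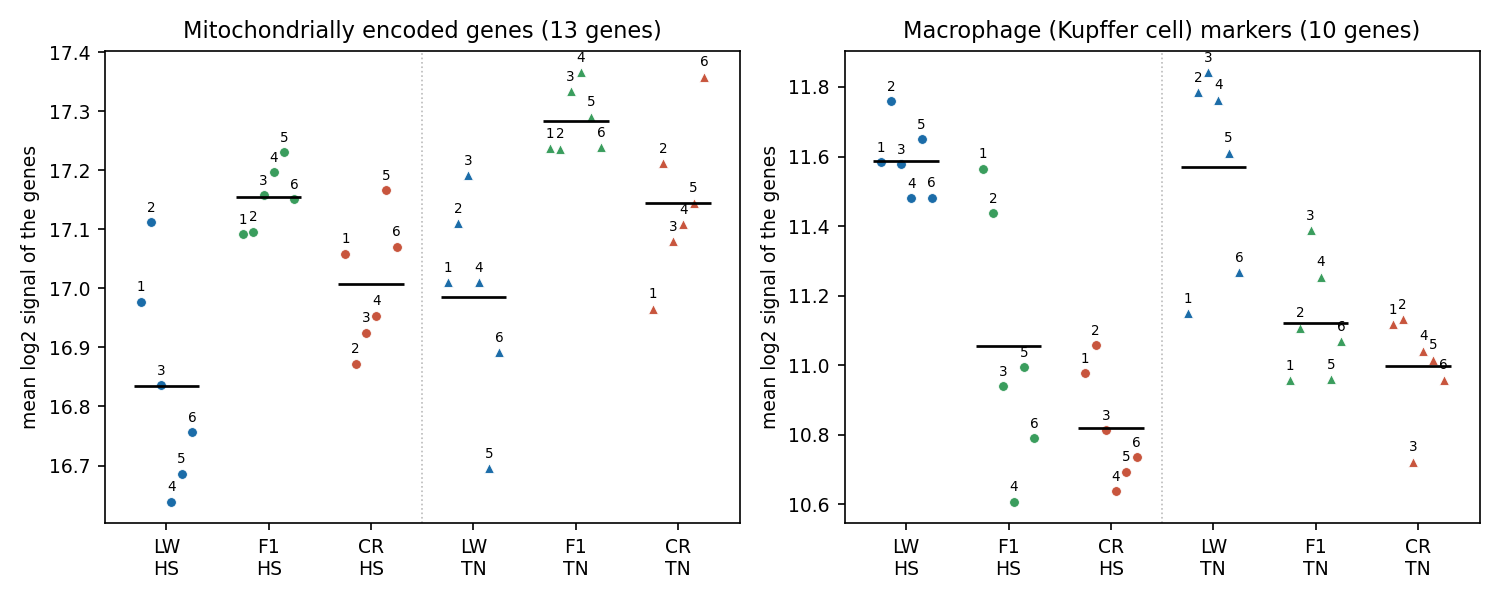
Mean log2 signal of 13 mitochondrially encoded genes (left) and 10 macrophage markers (right) in each liver (points numbered by replicate, HS circles, TN triangles; bars are group means). In the left panel F1 HS lies between 17.09 and 17.23 and in the right panel F1 HS replicates 1 and 2 lie at 11.57 and 11.44, within the LW HS range or close to it, with replicates 3 to 6 between 10.61 and 10.99.

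The 68 cytosolic ribosomal proteins had a median of -0.09, with 60 below the mid-parent value (52.1% of all genes were below) and 18 at an unadjusted p under 0.05. RPS16 (-0.26) and RPS27A (-0.28) had the smallest p in the list (limma adjusted p = 0.153 and 0.154). The mean ribosomal signal was 14.78 to 15.02 in F1 HS, 14.93 to 15.13 in LW HS and 14.91 to 15.07 in CR HS, so the groups overlapped. Under TN 49 of the 68 were below.

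Marker lists of non-hepatocyte cells varied in how many members differed between the parents, beside 16.1% of all genes. Of the 10 macrophage markers 8 passed the parental test, all higher in LW HS, among them the haemoglobin scavenger receptor CD163 (-1.32, CR HS minus LW HS) and the complement receptor VSIG4 (-0.91). The F1 HS mean was between the parents and nearer CR in all 8, although as given above replicates 1 and 2 were at the LW HS level and the other 4 at that of CR HS. The list median of the departure was -0.14, and without F1 HS replicates 1 and 2 it was -0.48. Of 11 endothelial markers 7 were higher in LW HS, led by the VEGF receptor KDR (-1.12), with the F1 between the parents in 6 and TEK at the CR level (position 1.02). Of 17 lymphocyte markers 6 and of 12 MHC class II genes 6 were higher in LW HS, with the F1 mean in between in each. None of the 11 hepatocyte or the 12 stellate cell markers passed the parental test, and of 9 cholangiocyte and 10 erythroid markers 1 and 2 did. Cholangiocyte markers had a median departure of 0.03, and erythroid markers -0.09.

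In the MHC class I list SLA-6 (-0.69, limma adjusted p = 0.184) and SLA-1 (-0.42, adjusted p = 0.194) had the smallest p. HLA-E, named after its values were seen, had the lowest departure, -1.81 ± 0.50 under HS (adjusted p = 0.218) and -0.20 at TN. The list median was -0.07 over 21 genes, while MIC-2 stood above the mid-parent value. Of 30 imprinted genes, expressed from a single parental copy, 6 differed between the parents (16.1% of all genes did), and all 6 had an F1 mean in between, as 86.4% of all probes with a parental difference had. MEG3, a maternally expressed long noncoding RNA, was higher in CR HS by 1.56 with the F1 at position 0.640, and the paternally expressed growth factor gene IGF2 was lower by a CR HS minus LW HS difference of -0.33 with the F1 at 0.190. Of 47 cell cycle genes 8 differed, a share near that of all genes, and these were higher in LW HS with the F1 mean in between.

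No gene of the metabolic and stress lists was called, where only 2 of all 11209 genes were. The 27 genes of fatty acid synthesis and elongation had a median departure of 0.11, beside -0.01 over all genes, and GPAM (0.64) and LPIN3 (0.38), enzymes of glycerolipid synthesis, had the smallest p (limma adjusted p = 0.559 and 0.535). In the growth hormone and IGF list IGF1, the circulating growth factor, was at 0.98 ± 0.31 (limma adjusted p = 0.277). Among the cytochrome P450 genes CYP1A1, an inducible enzyme of foreign compound oxidation, was at 1.01 ± 0.34 (adjusted p = 0.311) and CYP7A1, the first step of bile acid synthesis, at -0.67 (adjusted p = 0.562). Of 39 heat shock proteins and cochaperones 4 differed between the parents, beside 16.1% of all genes. In that list BAG1 (0.36) and FKBP4 (0.27) had the smallest p against the mid-parent value (limma adjusted p = 0.233 and 0.277), with FKBP4 at the CR level (position 1.02). HPD (0.31), an enzyme of tyrosine breakdown, and EHHADH (0.37), of peroxisomal fatty acid oxidation, lay at positions 1.06 and 0.968. Of 48 urea cycle and amino acid genes 7 differed between the parents, again beside 16.1% of all genes. All 7 were higher in CR HS. The F1 mean lay between the parents in 5, beside 86.4% of all probes with a parental difference. None of these departures passed the threshold with the 6 F1 HS animals.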

How the data were processed

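Liver RNA of 36 pigs was measured on 1-colour Agilent arrays, of which the 18 HS animals make the comparison. The deposited scanner files of the authors hold the median spot intensity (Agilent Feature Extraction 10.10.1.1, per the labels). The deposited table of the authors holds log2 values of 42051 probes, which were found to be centred per probe, so only its differences were used, as an alternative. Its scale beyond log2 and its centring step were not given in the sources used here.

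Intensities of 60305 non-control probes were log2 transformed, quantile normalized and averaged per probe, and 107 non-uniform spots were left out. The 44796 probes (74.3%) that Feature Extraction marked as well above background on 6 or more of the 36 arrays entered the tests. Median spot intensity was 70 to 92 per array with a background of 18 to 25. The number of animals, 6 a group, limits the precision. A model with 6 group means was fitted to all 36 arrays in limma 3.58.1 (R 4.3.3), with two-sided tests and Benjamini-Hochberg adjustment over the 44796 probes at 0.05. Contrasts were F1 HS minus mid-parent HS, CR HS minus LW HS, F1 HS minus each parent, the TN equivalents and the difference of departures. The study's random effects (pen, day, parents) are not in the labels, so the model lacks them. Over-dominant meant past the threshold against both parents in 1 direction, LW-like or CR-like past it against the mid-parent value and against only the other parent, and the rest where parents differed was additive or unresolved.

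Each symbol was represented by its kept probe of highest mean signal. Named were, each way, up to 12 called representative genes, filled to 6 by p, up to 4 per inheritance class, the 5 smallest p for HS against TN, 3 single-parent genes each way and 2 per list. Exceptions are marked, and a few genes that the rule names are not reported here. The members and lists were chosen with earlier results of these data known. Of 44796 kept probes 23151 had a symbol, updated through RefSeq tables where possible, with gene coordinates from Sscrofa11.1. The fit was tested on simulated data with 200 changed probes, and called none when nothing was changed. Alternatives were gProcessedSignal scaled to the 75th percentile, normexp (offset 50), the authors' table, no filter, the 18 arrays of a temperature alone, slide as a block, array weights, trend, 1 value per gene, a linear mid-parent value, and leaving out each animal, each slide, or F1 HS replicates 1 and 2. Replicate numbers are in accession order. Python 3.11.15 was used for the summaries.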

Additional observations from a re-analysis of the deposited data

Results flagged for a closer look

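In 3 of 81 checks of a group of 6 livers, 1 liver lay far from the other 5, where about 1 in 20 groups, or 4.05 checks, would by chance. The MTRF1 probe O7914 was lowest in CR HS replicate 3, with a gap of 0.696 of the group's range. RPL13AP3 was lowest in the same liver, CR HS replicate 3, with a gap of 0.657. TRIP6 was highest in CR HS replicate 6, with a gap of 0.685.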

How the results depend on the processing

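No paired analysis was possible because the replicate numbers follow accession order and pair no animals across groups. The 10 probes kept their direction in every alternative, and of 2453 comparisons of 77 named genes and probes with an alternative 2341 kept their side of the threshold, 79 lost the call, 33 gained it (21 of them without F1 HS replicates 1 and 2) and none reversed. The count of departures was 10, and became 16 with array weights, 16 with a linear mid-parent value, 3 with 1 value per gene, 6 without slide 3 and 2 without slide 4, and the cause was not tested beyond the fewer arrays or genes these use. Without F1 HS replicates 1 and 2 it was 1790, with 8742 against LW HS, 81 against CR HS, 11 at TN, 9 over-dominant up, 24 over-dominant down, 22 LW-like and 1699 CR-like. The count against CR HS was 15 with the processed signal. At TN the count of 6 became 0 with the processed signal, 0 with normexp, 3 in the authors' table, 1 without a filter, 1 with the TN arrays alone and 10 with slide as a fixed block. Over-dominant up became 1 with the processed signal, additive 5 in the authors' table, and with the HS arrays alone CR-like became 5 and additive 7. Leaving out 1 animal gave 7 to 21 departures (21 without F1 HS replicate 2), 5438 to 7738 parental calls, 444 to 5569 against LW HS, 17 to 59 against CR HS (59 without CR HS replicate 1, and 17 to 25 without any of CR HS replicates 2 to 5, F1 HS replicates 3 and 5 or LW HS replicates 2, 3 and 5), 1 to 11 at TN (11 without F1 HS replicate 2), 1 to 5 over-dominant up, 4 to 7 over-dominant down, 1 to 9 CR-like, 2 to 5 additive and 5433 to 7730 unresolved, and the mean F1 HS position was 0.550 to 0.632. Of 125 list medians under other settings 13 turned sign.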
